A study of Mus musculus with 6 samples.

Results

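Red blood cell genes were followed in purified blood stem cells of old mice. The set holds 31 mouse genes of the erythroid lineage, chosen by GENCODE M21 symbol: globin genes, enzymes of heme synthesis with iron import, proteins of the red cell membrane and its skeleton, and regulators and enzymes of erythroid progenitors. A symbol match was found for 30 of the 31, all of them among the 17500 genes of the series table of counts, and all 30 had enough counts to be tested; Ahsp, the alpha globin chaperone, was not analysed here. Long-term hematopoietic stem cells (LT-HSCs) came from male wild-type (WT) C57/Bl6 mice of 22 to 24 months and had been sorted as Lin-, Sca1+, cKit+, CD48- and CD150+. Each of 3 mice gave a pair of libraries of 5000 cells: CD61High is the top 10% of these cells by surface CD61 and CD61Low the bottom 10%. The labels name no treatment. CD61 is integrin beta 3. The titles give 1 mouse for each pair of libraries, although the sorting protocol mentions pools, and the 3 mouse numbers are taken here as 3 animals.

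Erythroid cells arise from stem cells through megakaryocyte and erythroid progenitors. Erythropoietin, acting through its receptor Epor, and the transcription factors Gata1 and Klf1 then turn on the genes for heme enzymes, membrane proteins and, last and most abundantly, the adult globins. Adult globin is not known as a stem cell product, whereas some progenitor genes, such as Car2 and Epor, are transcribed before the globin genes are.

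Total counts on genes lay between 21354130 and 26398090 per library. The stem cell genes Procr (38.8 to 281.0 CPM, counts scaled to a common total on genes), Ly6a (71.6 to 282 CPM), Kit (576 to 1965 CPM) and Slamf1 (36.1 to 135 CPM) were present in all 6 libraries. A list of 13 stem and progenitor genes, with these 4 and also Cd34, Cd48 and Flt3 among them, was summed. It took 0.367%, 0.198% and 0.391% in CD61High, and 0.484%, 0.126% and 0.508% in CD61Low of mice 1, 2 and 3 as shares of gene counts, least in both libraries of mouse 2. Of these 13 genes, 6 were lower and 2 higher in CD61High in all 3 mice, and their part in the results below was not tested. Cd48, whose product the sort gates out, ranged from 1.07 to 129.8 CPM. Itgb3, which encodes CD61, did not follow the gate: it stood at 206, 139.8 and 227 CPM in CD61High of mice 1, 2 and 3 and at 294, 129 and 336 CPM in CD61Low. Both libraries of mouse 2 stand apart from the other 4 in the erythroid genes, so results are given for each mouse and, where they rest on it, also without mouse 2.

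Most of the erythroid genes differed more between mouse 2 and the other mice than between the gates. By TMM-adjusted CPM, both libraries of mouse 2 lay above the 4 libraries of mice 1 and 3 for all 30 genes, a pattern shown by 24.2% of the 15610 genes tested. By share of gene counts the pattern failed for Car2, at 0.293% in CD61Low of mouse 2 against 0.316% in CD61High of mouse 1. Averaged over the gates, the level in mouse 2 was 1.48 to 14.5 times that in mouse 1 (median 7.48) and 1.72 to 77.8 times that in mouse 3 (median 25.7). Summed over the 30 genes, the share of gene counts was 0.542%, 2.13% and 0.423% in CD61High, and 0.693%, 3.52% and 0.395% in CD61Low of mice 1, 2 and 3, so CD61Low held more in mice 1 and 2 and slightly less in mouse 3. In mouse 3 much of the sum was Car2, at 0.265% in CD61High and 0.202% in CD61Low. The adult globins there went the other way, at 0.0519% and 0.0912%, and the remaining genes were near-level, at 0.106% and 0.101%. CD61High was the lower library for 25 of 30 genes in mouse 1, 30 of 30 in mouse 2 and 17 of 30 in mouse 3. The median difference, as log2 CPM of CD61High minus CD61Low, was -1.43, -0.79 and -0.41 in mice 1, 2 and 3, against 0, -0.07 and -0.01 over all genes tested. In all 3 mice alike, 17 of the 30 genes (56.7%) were lower in CD61High, against 24.7% of all genes tested, and 0 were higher, against 20.6%. These counts, by mouse and over all 3, use TMM-adjusted CPM. By share of gene counts, Car2 was higher in CD61High in all 3 mice, at 0.316%, 0.326% and 0.265% against 0.221%, 0.293% and 0.202% in CD61Low. In these libraries of whole sorted samples, fewer erythroid cells and less erythroid RNA per cell cannot be told apart.

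Whether these differences passed a test depended on how the mice entered it. In edgeR's quasi-likelihood test without a block, 0 of the 30 genes and 0% of the 15610 tested genes passed an adjusted p of 0.05. Among the 30, the lowest adjusted p was 0.939, and 0 had an unadjusted p under 0.05, against 6.55% of all genes. DESeq2 without a block called 0 of the 29 that it gave a p (Hbb-bs had none), against 1.48% of all genes. With the mouse as a block, which compares the gates within each animal, edgeR called 1 of the 30 lower (Tspo2) and 0 higher, against 0.160% of all genes lower and 0.0961% higher. At an unadjusted p under 0.05 the blocked test had 18 of the 30, all lower in CD61High, against 20.8% of all genes in either direction, and 8 of the 30 had an adjusted p from 0.05 to 0.07. Once mouse 2 was left out, which leaves few degrees of freedom, the blocked test called 7 of 30 lower (23.3%) and 0 higher. It called 4.77% of all genes, namely 2.93% as lower and 1.85% as higher; without mouse 2 and without the block, 0 of the 30 were called, against 0.855% of all genes. The 7 genes were Hba-a1, Hbb-bs, Slc25a37, Slc4a1, Sptb, Rhd and Ermap, with adjusted p from 0.0160 to 0.0493, against 0.0512 to 0.0934 with all 3 mice; over the other settings tried their adjusted p ran from 1.85e-08 to 1.000. DESeq2 with the block called 16 of 30 lower (53.3%) and 0 higher, against 7.11% and 2.92% of all genes. For 0 of the 30 did the 3 CD61High libraries lie apart from the 3 CD61Low libraries, which 8.62% of all genes did with CD61High higher and 5.71% with CD61High lower. That 0 was fixed by mouse 2, since both of its libraries lay above all others for each of the 30 genes by TMM-adjusted CPM, the scale used there. It is no separate result about the gates.

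**Figure D1:**
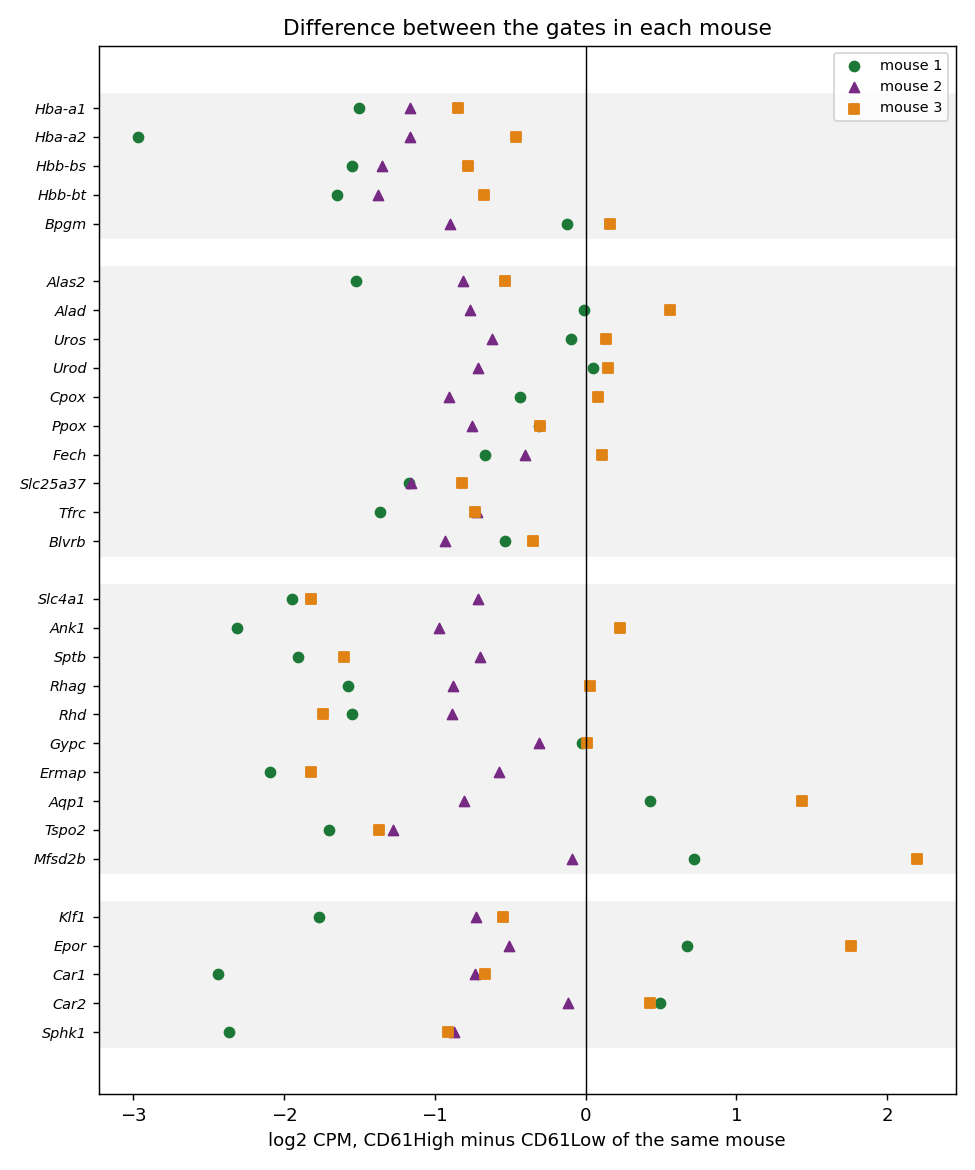
Difference between the gates within each mouse, as log2 CPM of CD61High minus CD61Low (x axis), for the 30 erythroid genes grouped from the top as globin, heme, membrane and progenitor genes. Each point is 1 mouse; the purple triangles of mouse 2 lie below 0 for all 30 genes, while Aqp1, Mfsd2b, Epor, Urod and Car2 lie above 0 in mice 1 and 3.

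Adult hemoglobin is built from alpha chains, encoded by the neighbouring genes Hba-a1 (ENSMUSG00000069919.7, chromosome 11, 32283511 to 32284465, GRCm38) and Hba-a2 (ENSMUSG00000069917.7, chromosome 11, 32296489 to 32297298), and beta chains, encoded by Hbb-bs (ENSMUSG00000052305.6, chromosome 7, 103826534 to 103828096) and Hbb-bt (ENSMUSG00000073940.3, chromosome 7, 103812524 to 103813996). The copies of each pair are nearly identical, which bears on how reads are shared between them. Over the 429 coding bases of the alpha pair and the 444 of the beta pair there is 1 difference each, C381T from Hba-a1 to Hba-a2 and C417T from Hbb-bs to Hbb-bt, counted from the first base of the start codon. The stretches around it, from the GENCODE M21 transcripts, are shown because they hold the base that tells the coding sequences of a pair apart, given in capitals.
Hba-a1: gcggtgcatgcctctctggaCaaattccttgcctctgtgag
Hba-a2: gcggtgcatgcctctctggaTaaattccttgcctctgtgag
Hbb-bs: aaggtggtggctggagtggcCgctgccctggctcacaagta
Hbb-bt: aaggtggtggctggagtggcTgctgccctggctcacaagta
Of all 75-base words in these transcripts, 62.2% of those of Hba-a1 and 64.3% of those of Hbb-bs also occur in the paralog. Reads from such stretches match both copies, so the levels of single copies are uncertain. Multimapping reads, which are not counted on genes, made up 10.0% to 15.6% of a library and 13.1% and 15.6% in CD61High and CD61Low of mouse 2.

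Hbb-bs was the globin with the most counts, at 501 CPM in the CD61High library and 1471 in the CD61Low library of mouse 1, at 8065 and 20546 in those of mouse 2, and at 321 and 551 in those of mouse 3. The CD61Low library was the higher one in each mouse, by 2.93-fold, 2.55-fold and 1.71-fold, but the libraries spanned a 64.0-fold range, so the groups overlapped, with means of 2962 ± 4419 CPM and 7523 ± 11288 CPM (SD, n = 3) in CD61High and CD61Low. The unblocked log2 fold change of Hbb-bs came to -1.34 (SE 1.74), adjusted p = 0.940. Hba-a1 stood at 164 CPM in the CD61High library and 466 in the CD61Low library of mouse 1, at 2493 and 5602 in those of mouse 2, and at 102 and 183 in those of mouse 3, again lower in CD61High of each mouse and highest in mouse 2. Hbb-bt, the minor beta globin by counts, stood at 74.8 CPM in the CD61High library and 234 in the CD61Low library of mouse 1, at 1171 and 3035 in those of mouse 2, and at 47.3 and 75.4 in those of mouse 3. The order of the 6 libraries was that of Hbb-bs, with the count ratio of Hbb-bs to Hbb-bt between 6.28 and 7.30. Hba-a2 stood at 4.22 CPM in the CD61High library and 33.6 in the CD61Low library of mouse 1, at 167 and 374 in those of mouse 2, and at 9.38 and 12.96 in those of mouse 3. CD61High of mouse 1 was its lowest library, and there the ratio of Hba-a1 to Hba-a2 counts was 39.0, against 10.8 to 15.0 in the other 5. The share of all gene counts taken by the 4 adult globins was 0.0811%, 1.10% and 0.0519% in CD61High of mice 1, 2 and 3, and 0.236%, 2.26% and 0.0912% in CD61Low. Wilson intervals at the 95% level, which cover counting error only, were narrow, such as 0.0510% to 0.0528% in CD61High of mouse 3. Both libraries of mouse 2 were thus far above the others. Bpgm makes bisphosphoglycerate, which lowers the oxygen affinity of hemoglobin. It did not share the globin pattern outside mouse 2: it stood at 47.6 CPM in the CD61High library and 51.8 in the CD61Low library of mouse 1, at 148 and 276 in those of mouse 2, and at 55.5 and 49.6 in those of mouse 3, near-level between the gates of mice 1 and 3. Its log2 fold change with the block was -0.29 (SE 0.22), adjusted p = 0.488. Of these 5 genes, the 4 globins were lower in CD61High in all 3 mice, and the 5 had median differences of log2 -1.55, -1.17 and -0.67 in mice 1, 2 and 3.

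Heme is made in a chain of enzymes that starts and ends in mitochondria. Alas2 (ENSMUSG00000025270.13, chromosome X, 150547375 to 150570638), the erythroid form of the first and rate-limiting enzyme, stood at 38.8 CPM in the CD61High library and 112 in the CD61Low library of mouse 1, at 649 and 1138 in those of mouse 2, and at 24.3 and 35.3 in those of mouse 3. It was lower in CD61High of each mouse, with log2 differences of -1.53, -0.81 and -0.54, and 15.5% of its exon bases overlap Apex2. The middle enzymes did not follow Alas2 in mice 1 and 3. Alad, which joins its product into a ring precursor, stood at 121 CPM in the CD61High library and 122 in the CD61Low library of mouse 1, at 286 and 486 in those of mouse 2, and at 107 and 72.2 in those of mouse 3, so CD61High was above CD61Low in mouse 3. Uros (20.3 to 113 CPM) and Urod (93.3 to 417 CPM), which close and trim the ring, differed between the gates by log2 -0.099, -0.62 and 0.14 and by log2 0.05, -0.71 and 0.15 in mice 1, 2 and 3. For these 3 enzymes the gap between the gates was widest in mouse 2. Cpox (61.8 to 563 CPM) and Ppox (17.9 to 121 CPM), which oxidise the ring, had differences of -0.43, -0.91 and 0.08 and of -0.31, -0.76 and -0.30, and 17.5% of the exon bases of Ppox overlap B4galt3. Fech, which inserts the iron, had 119.6 to 882 CPM and differences of -0.67, -0.40 and 0.11. Both iron importers were lower in CD61High of each mouse. Slc25a37, the mitoferrin that carries iron into mitochondria (ENSMUSG00000034248.7, chromosome 14, 69241848 to 69285112), stood at 22.4 CPM in the CD61High library and 50.7 in the CD61Low library of mouse 1, at 175 and 390.1 in those of mouse 2, and at 13.4 and 23.7 in those of mouse 3. Its blocked log2 fold change came to -1.06 (SE 0.14), adjusted p = 0.0512, and to -1.02 (SE 0.19), adjusted p = 0.0485, once mouse 2 was left out. Tfrc, the transferrin receptor, stood at 39.4 CPM in the CD61High library and 102 in the CD61Low library of mouse 1, at 446 and 734 in those of mouse 2, and at 16.2 and 27.0 in those of mouse 3, with a blocked log2 fold change of -0.94 (SE 0.17) that missed the threshold (adjusted p = 0.0657). Blvrb, a biliverdin reductase of erythroid cells that acts after heme breakdown, had 40.1 to 524 CPM and differences of -0.53, -0.93 and -0.35. Of these 10 genes, 5 were lower in CD61High in all 3 mice (Alas2, Ppox, Slc25a37, Tfrc and Blvrb), and their median differences were -0.48, -0.76 and -0.11.

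The membrane genes were divided: 5 of 10 were lower in CD61High in all 3 mice, and Aqp1 and Mfsd2b were higher there outside mouse 2. Over the whole set, 5 of 30 genes (16.7%) were higher in mice 1 and 3 and lower in mouse 2. That is near the 14.2% of all genes tested. Tspo2 (ENSMUSG00000023995.12, chromosome 17, 48447907 to 48451522), a translocator protein of erythroid membranes that binds cholesterol, was the single gene of the set called with the block. It stood at 2.93 CPM in the CD61High library and 9.70 in the CD61Low library of mouse 1, at 46.5 and 113 in those of mouse 2, and at 0.812 and 2.23 in those of mouse 3. CD61High was the lower library of each mouse, by log2 -1.70, -1.28 and -1.37, and Tspo2 fell with the block by log2 1.48 (SE 0.18, adjusted p = 0.0489). The unblocked value was -1.31 (SE 1.84), adjusted p = 0.940. The blocked call was lost without mouse 1 (adjusted p = 0.309), without mouse 2 (0.0665) and without mouse 3 (0.134), and over the 16 other settings the adjusted p ran from 1.51e-07 to 1.000.

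Slc4a1 (ENSMUSG00000006574.15, chromosome 11, 102348824 to 102366203), the anion exchanger of the red cell, stood at 90.2 CPM in the CD61High library and 347 in the CD61Low library of mouse 1, at 1597 and 2613 in those of mouse 2, and at 15.1 and 53.4 in those of mouse 3. Its libraries spanned a 173-fold range, and the gap between the gates was wider in mice 1 and 3 (log2 -1.94 and -1.82) than in mouse 2 (-0.71). Sptb, the beta spectrin of the membrane skeleton, stood at 17.6 CPM in the CD61High library and 66.3 in the CD61Low library of mouse 1, at 248 and 403 in those of mouse 2, and at 3.14 and 9.68 in those of mouse 3. Rhd, a protein of the Rh blood group complex, stood at 32.01 CPM in the CD61High library and 94.0 in the CD61Low library of mouse 1, at 422 and 778 in those of mouse 2, and at 3.51 and 11.9 in those of mouse 3. Ermap, an immunoglobulin-family protein of erythroid membranes, stood at 14.1 CPM in the CD61High library and 60.6 in the CD61Low library of mouse 1, at 224 and 333 in those of mouse 2, and at 1.88 and 6.85 in those of mouse 3. In all 4 of these genes CD61High was the lower library in each mouse. Leaving out mouse 2 gave blocked log2 fold changes of -1.90 (SE 0.12) for Slc4a1, -1.80 (SE 0.19) for Sptb, -1.67 (SE 0.16) for Rhd and -2.02 (SE 0.20) for Ermap, against -1.49, -1.39, -1.38 and -1.48 with all 3 mice. The SEs without mouse 2 rest on few degrees of freedom.

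The remaining membrane genes differed between the gates in fewer mice or in the other direction. Ank1, the ankyrin that ties spectrin to the anion exchanger, stood at 2.71 CPM in the CD61High library and 13.8 in the CD61Low library of mouse 1, at 41.6 and 81.9 in those of mouse 2, and at 2.33 and 1.97 in those of mouse 3. Rhag, the partner of Rh proteins, stood at 16.2 CPM in the CD61High library and 48.5 in the CD61Low library of mouse 1, at 212 and 391 in those of mouse 2, and at 9.01 and 8.82 in those of mouse 3. For both, mouse 3 showed near-equal gates, and neither passed the blocked test (adjusted p = 0.271 and 0.212). Gypc, a glycophorin, varied least among the membrane genes, from 153 to 369.8 CPM, with differences of -0.03, -0.31 and 0.01. Aqp1 (ENSMUSG00000004655.5, chromosome 6, 55336432 to 55348555), a water channel, stood at 129 CPM in the CD61High library and 96.1 in the CD61Low library of mouse 1, at 326 and 569.6 in those of mouse 2, and at 104 and 38.6 in those of mouse 3. Mfsd2b (ENSMUSG00000037336.14, chromosome 12, 4862440 to 4874359), which exports sphingosine phosphate from red cells, stood at 39.2 CPM in the CD61High library and 23.8 in the CD61Low library of mouse 1, at 108 and 114 in those of mouse 2, and at 35.7 and 7.74 in those of mouse 3. Their blocked log2 fold changes of 0.35 (SE 0.42) and 0.91 (SE 0.43) did not pass the test (adjusted p = 0.678 and 0.301), and that of Aqp1 was -0.33 (SE 1.02), of the opposite sign, without the block. Of the 10 membrane genes, 5 were lower in CD61High in all 3 mice and 2 were higher in mice 1 and 3 and lower in mouse 2, with medians of -1.64, -0.76 and -0.68 log2 by mouse.

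The progenitor genes were divided in the same manner. Klf1, the transcription factor that drives globin and membrane genes, stood at 12.6 CPM in the CD61High library and 43.1 in the CD61Low library of mouse 1, at 182 and 301 in those of mouse 2, and at 5.17 and 7.60 in those of mouse 3. Car1, a carbonic anhydrase of erythroid progenitors and red cells, stood at 23.3 CPM in the CD61High library and 127 in the CD61Low library of mouse 1, at 411 and 684 in those of mouse 2, and at 12.1 and 19.3 in those of mouse 3. Sphk1, which makes the sphingosine phosphate that Mfsd2b exports, stood at 2.54 CPM in the CD61High library and 13.4 in the CD61Low library of mouse 1, at 43.9 and 80.3 in those of mouse 2, and at 1.07 and 2.09 in those of mouse 3. These 3 genes were lower in CD61High of each mouse, with blocked log2 fold changes of -1.03 (SE 0.26), -1.27 (SE 0.38) and -1.41 (SE 0.34) that missed the threshold (adjusted p = 0.107, 0.153 and 0.1004). Epor (ENSMUSG00000006235.6, chromosome 9, 21958897 to 21963506), the erythropoietin receptor, stood at 33.8 CPM in the CD61High library and 21.2 in the CD61Low library of mouse 1, at 69.9 and 99.6 in those of mouse 2, and at 37.0 and 10.9 in those of mouse 3. Outside mouse 2, the CD61High libraries were its higher ones. Car2, the other carbonic anhydrase of the set, stood at 2903 CPM in the CD61High library and 2066 in the CD61Low library of mouse 1, at 3529 and 3831 in those of mouse 2, and at 2449.7 and 1825 in those of mouse 3, a range of 2.10-fold over the 6 libraries. The difference of Epor was log2 0.67, -0.51 and 1.76 and that of Car2 0.49, -0.12 and 0.42 in mice 1, 2 and 3. By share of gene counts, without the TMM factor, Car2 of mouse 2 was higher in CD61High (0.326% against 0.293%). Neither Epor nor Car2 passed the blocked test, at 0.63 (SE 0.43), adjusted p = 0.448, and 0.27 (SE 0.20), adjusted p = 0.478. Without mouse 2 the values were 1.20 (SE 0.31) for Epor and 0.44 (SE 0.12) for Car2, adjusted p = 0.0872 and 0.0915. The 5 progenitor genes had medians of -1.77, -0.73 and -0.55 log2 by mouse.

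**Figure D2:**
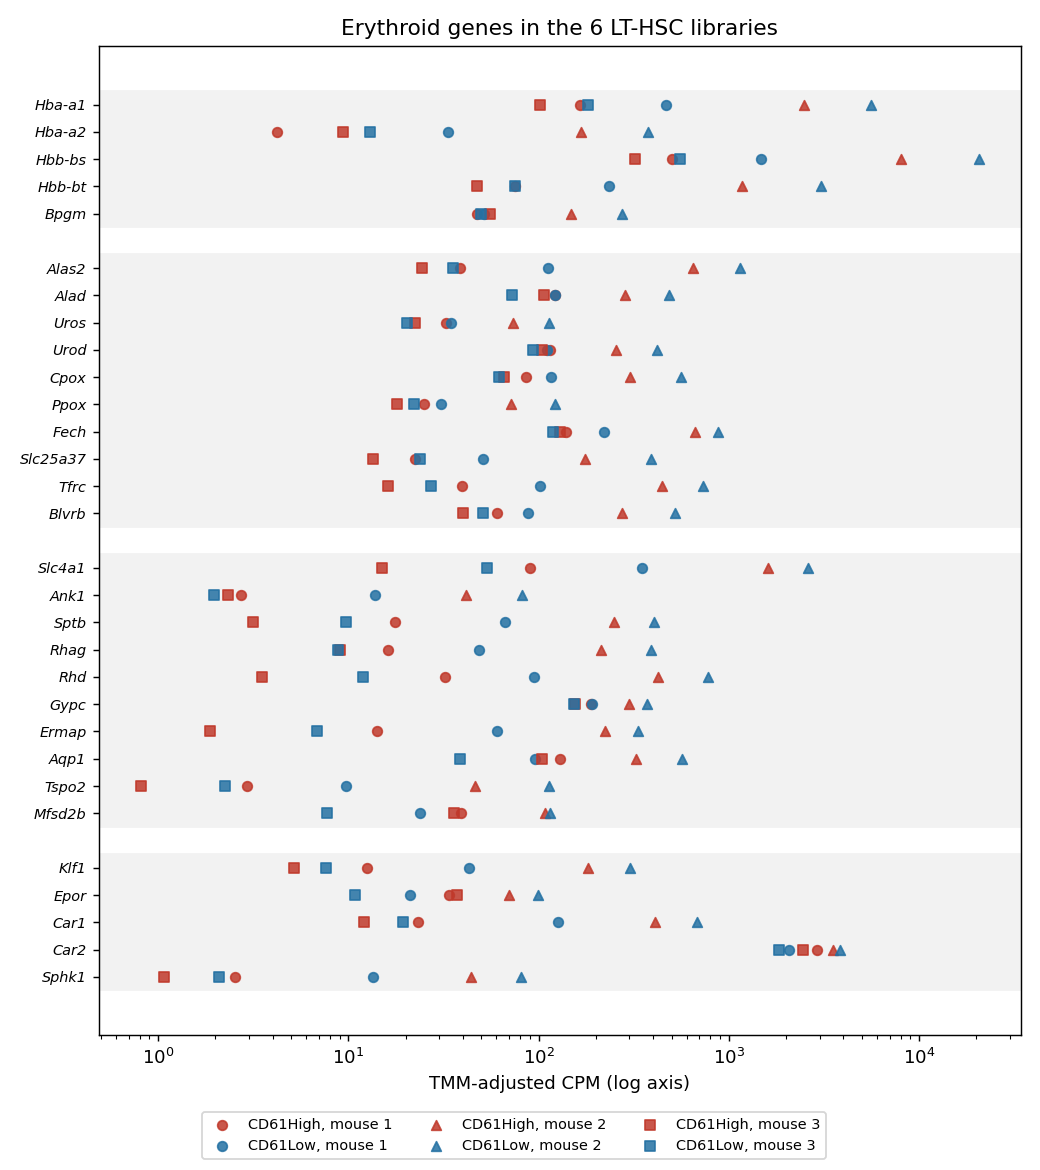
TMM-adjusted CPM on a log axis (x axis) of the 30 erythroid genes in the 6 libraries, red for CD61High and blue for CD61Low, with 1 symbol shape per mouse. The triangles of mouse 2 lie to the right of the other 4 libraries for each gene, by little for Car2 and by much for Hbb-bs, whose libraries run from 321 to 20546 CPM.

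Levels were compared between genes per kilobase of exon. On this scale of CPM per kilobase, Hbb-bs had 26753 and Car2 1582 in CD61Low of mouse 2, where Hbb-bs was first and Hba-a2, at 561, lay below Car2. In CD61High of mouse 3 the order was turned, with Car2 at 1011 and Hbb-bs at 418 CPM per kilobase. Car2 was also first in CD61High of mouse 1 (1198 against 653 for Hbb-bs) and, by a small margin, in CD61Low of mouse 3 (754 against 717). The full exon length was used, although multimapping reads are not counted and 64.3% of the 75-base words of Hbb-bs also occur in its paralog. The globin values may therefore be too low, and whether the order against Car2 holds was not tested.

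The genes were also sorted by stage. Of 10 genes of early progenitors (Klf1, Epor, Car1, Car2, Ermap, Sphk1, Aqp1, Mfsd2b, Blvrb and Rhd), 6 were lower in CD61High in all 3 mice and the other 4, Epor, Car2, Aqp1 and Mfsd2b, were higher in mice 1 and 3 and lower in mouse 2. Among all genes tested, 14.2% showed the latter pattern, and among the 30 genes of the set a similar share, 16.7%. In mouse 2, Car2 and Mfsd2b were near-level, with CD61Low over CD61High at 1.09-fold and 1.06-fold. For Car2 the direction there turned by share of gene counts. Of 9 late genes (the 4 globins, Alas2, Slc4a1, Bpgm, Tspo2 and Slc25a37), 8 were lower in all 3 mice, with Bpgm the exception, and 0 showed the divided pattern. The median difference in mice 1, 2 and 3 was -1.04, -0.73 and -0.45 for the early genes and -1.55, -1.17 and -0.78 for the late genes. The difference between the stages was not tested.

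Ratios within a library show which genes kept pace with globin, free of any scaling between libraries. Counts were set against 1000 counts of Hbb-bs of the same library. Hbb-bt (137 to 159), Hba-a1 (273 to 332) and Alas2 (55.4 to 80.5) kept nearly one ratio over the 6 libraries, with ranges of 1.16-fold, 1.22-fold and 1.45-fold. Rhag, Klf1, Tfrc, Slc25a37, Car1, Tspo2, Ank1 and Sphk1 also stayed under a 3-fold range. Of the 29 genes compared with Hbb-bs, 11 varied by under 3-fold, 9 by 3-fold to 10-fold and 9 by 10-fold or more. The 9 with the widest range were Aqp1, Uros, Bpgm, Alad, Urod, Mfsd2b, Epor, Gypc and Car2. For each of them, CD61Low of mouse 2 had the lowest ratio and CD61High of mouse 3 the highest. Those libraries had the most and the least Hbb-bs, so genes that vary little take this order from the denominator. Epor ran from 4.85 to 115 counts and Mfsd2b from 5.57 to 111 counts per 1000 of Hbb-bs. Car2 spanned the widest range, from 186 to 7625 counts (40.9-fold).

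**Figure D3:**
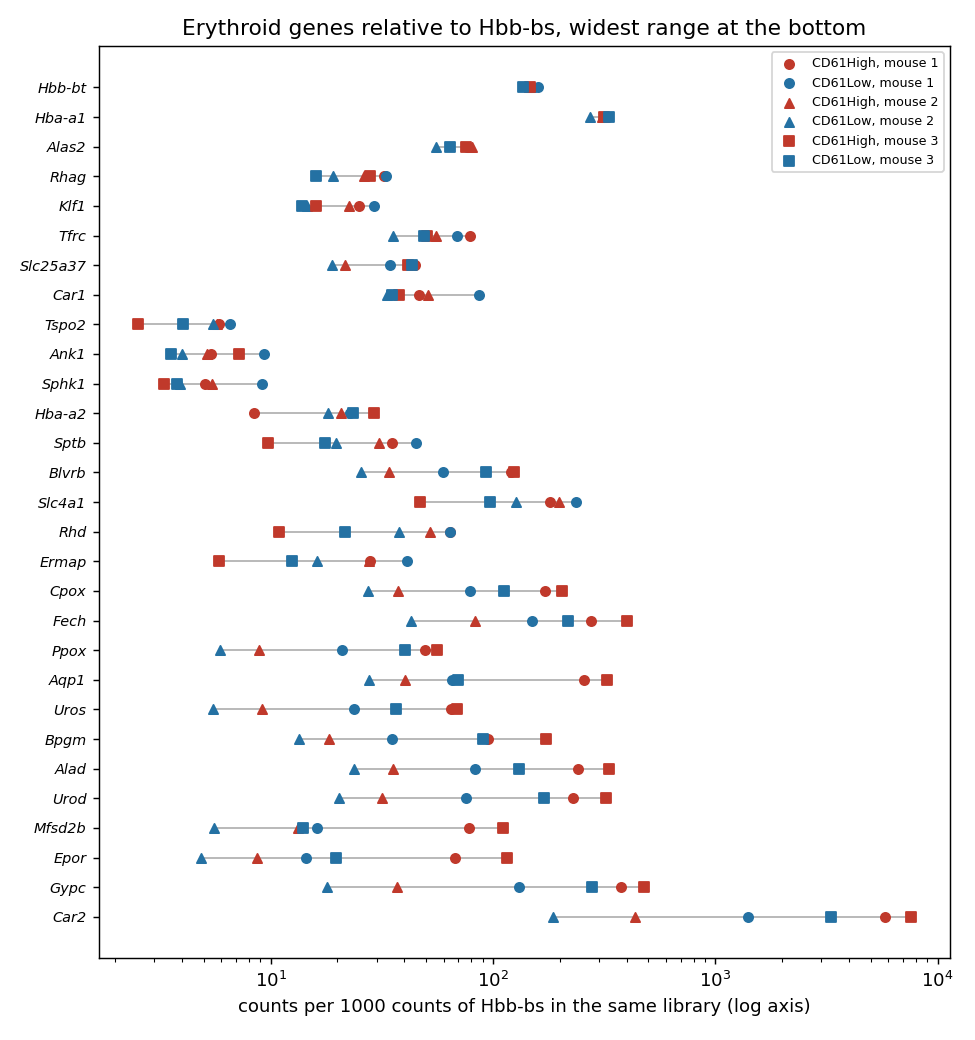
Counts of each erythroid gene per 1000 counts of Hbb-bs in the same library (x axis, log), for the 29 other genes ordered by range, narrowest at the top. Each symbol is 1 library; Hbb-bt, Hba-a1 and Alas2 form tight groups, while Car2 runs from 186 to 7625.

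Promoter sequences, taken from RefSeq on GRCm38.p6, were available for 23 of the 30 genes, with 31 starts in all. The 250 bases before each start were searched on both strands for the GATA motif (AGATAA or its variant AGATAG, and likewise TGATAA or its variant TGATAG), the binding sequence of Gata1 and its relatives, and for a CACCC-type motif (CCNCNCCC) bound by Klf1 and other factors of its family. Overlapping matches were counted separately, and RefSeq starts can differ from those of GENCODE. The promoters shown are those of 4 genes lower in CD61High in all 3 mice (Hbb-bs, Alas2, Klf1 and Tspo2) and of 3 genes that were higher in mice 1 and 3 (Epor, Aqp1 and Mfsd2b), read towards the start, with matches to either motif in capitals.
Hbb-bs: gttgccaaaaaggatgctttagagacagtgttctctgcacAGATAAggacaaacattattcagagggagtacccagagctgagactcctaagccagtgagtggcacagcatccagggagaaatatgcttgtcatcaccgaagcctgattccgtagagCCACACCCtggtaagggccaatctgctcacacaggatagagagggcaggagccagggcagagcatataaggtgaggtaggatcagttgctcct
Alas2: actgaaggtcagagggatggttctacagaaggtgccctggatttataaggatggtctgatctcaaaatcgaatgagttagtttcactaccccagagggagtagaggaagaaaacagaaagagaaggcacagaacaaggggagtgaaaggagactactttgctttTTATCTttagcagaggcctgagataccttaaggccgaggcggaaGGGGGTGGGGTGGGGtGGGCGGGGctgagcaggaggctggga
Klf1: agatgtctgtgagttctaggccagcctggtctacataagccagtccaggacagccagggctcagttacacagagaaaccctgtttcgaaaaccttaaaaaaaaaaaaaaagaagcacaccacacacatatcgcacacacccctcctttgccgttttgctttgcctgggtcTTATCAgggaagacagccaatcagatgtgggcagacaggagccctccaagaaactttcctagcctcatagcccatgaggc
Tspo2: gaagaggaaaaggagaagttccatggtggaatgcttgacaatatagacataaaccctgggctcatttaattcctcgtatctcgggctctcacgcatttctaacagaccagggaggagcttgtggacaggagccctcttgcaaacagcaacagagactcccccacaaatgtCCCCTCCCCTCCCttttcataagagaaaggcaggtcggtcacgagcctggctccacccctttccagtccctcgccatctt
Epor: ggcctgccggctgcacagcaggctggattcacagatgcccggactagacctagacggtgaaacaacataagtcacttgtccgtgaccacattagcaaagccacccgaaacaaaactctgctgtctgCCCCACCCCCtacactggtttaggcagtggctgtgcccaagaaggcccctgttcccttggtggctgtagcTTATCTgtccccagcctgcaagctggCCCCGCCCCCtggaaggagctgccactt
Aqp1: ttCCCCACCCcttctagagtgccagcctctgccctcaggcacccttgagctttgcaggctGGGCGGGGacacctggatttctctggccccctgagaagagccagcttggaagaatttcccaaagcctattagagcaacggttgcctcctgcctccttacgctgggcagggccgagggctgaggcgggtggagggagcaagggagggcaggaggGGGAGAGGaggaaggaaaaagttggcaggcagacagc
Mfsd2b: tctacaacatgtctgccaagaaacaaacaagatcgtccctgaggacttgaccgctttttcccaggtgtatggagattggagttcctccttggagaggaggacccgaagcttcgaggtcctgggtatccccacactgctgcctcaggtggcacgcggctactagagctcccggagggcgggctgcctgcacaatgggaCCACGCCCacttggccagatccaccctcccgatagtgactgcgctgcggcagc
They lie at chr7:103827929-103828178 on the minus strand (Hbb-bs), chrX:150547167-150547416 on the plus strand (Alas2), chr8:84901732-84901981 on the plus strand (Klf1), chr17:48451502-48451751 on the minus strand (Tspo2), chr9:21963577-21963826 on the minus strand (Epor), chr6:55336049-55336298 on the plus strand (Aqp1) and chr12:4874360-4874609 on the minus strand (Mfsd2b). A GATA match stood in the windows of Hbb-bs, Alas2, Klf1 and Epor and a CACCC-type match in those of Hbb-bs, Alas2, Tspo2, Epor, Aqp1 and Mfsd2b. Among the genes shown, each motif thus occurred in both patterns. Whether either motif was more frequent in one pattern was not tested. Over all 31 starts, 45.2% held a GATA match and 64.5% a CACCC-type match, against 26.5% and 45.9% of 32851 mouse promoters of the same length. Both were present in 16.1%, against 8.19%. These are matches of letters in a fixed window and say nothing of binding.

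Other genes of the pathway were taken from lists, and edgeR with the mouse as a block and all 3 mice called 0 of their members in either direction. Beside adult globin, 1 of 6 other globin genes was tested: Hbq1b, a theta-type globin, stood at 1.38 CPM in the CD61High library and 3.54 in the CD61Low library of mouse 1, at 19.5 and 47.7 in those of mouse 2, and at 0.739 and 0.894 in those of mouse 3, highest in mouse 2 as the adult globins were. Of 12 further heme genes tested, 4 were lower and 1 higher in CD61High in all 3 mice. The 2 with the smallest blocked p were Hmox1, which breaks heme down, at -1.10 (SE 0.19) and an adjusted p of 0.0648, and Abcb10, a mitochondrial transporter, at -0.43 (SE 0.15) and 0.183. Of 9 further iron genes, 3 were lower and 2 higher in CD61High in all 3 mice. Tfr2, a second transferrin receptor, was on the high side in CD61High, at 294 CPM in the CD61High library and 179.7 in the CD61Low library of mouse 1, at 205 and 102 in those of mouse 2, and at 259.6 and 193 in those of mouse 3, its blocked log2 fold change being 0.71 (SE 0.15), adjusted p = 0.0792. Ftl1, the ferritin light chain, was at -0.58 (SE 0.12) and 0.0786. Of 11 further membrane genes tested, 7 were lower and 0 higher in CD61High in all 3 mice. Without mouse 2 the blocked test called 3 of the 11 lower, against 2.93% of all genes. These 3 included the membrane skeleton protein Epb42 and the adducin Add2, named after their values were seen. DESeq2 with the block and all mice called 7 of the 11 lower, against 7.11% of all genes. Kel, a blood group peptidase, had a blocked log2 fold change of -1.29 (SE 0.19), adjusted p = 0.0552. Of 11 erythroid transcription factors, 3 were lower and 2 higher in CD61High in all 3 mice. Gfi1b, a repressor needed for erythroid and megakaryocyte cells, had 0.46 (SE 0.15) at an adjusted p of 0.165 and 0.60 (SE 0.11) at 0.0496 without mouse 2. It was the 1 call among these 11 factors there, where 1.85% of all genes were called higher. Myb, a factor of proliferating progenitors, had 0.54 (SE 0.13) at 0.0965. Gata1, the master factor of the lineage, chosen after its values were seen, stood at 22.4 CPM in the CD61High library and 24.4 in the CD61Low library of mouse 1, at 107 and 143 in those of mouse 2, and at 31.9 and 4.13 in those of mouse 3, so the libraries of mouse 3 were far apart with CD61High above. DESeq2 with the block called 1 of the 12 heme genes lower, 2 of the 9 iron genes lower and 1 higher, 1 of the 11 factors higher, and the other globin gene lower. Over all genes it called 7.11% lower and 2.92% higher, so the heme list was near that share. The median blocked log2 fold change was -0.12 for the heme list, 0.06 for the iron list, -1.12 for the membrane list and -0.05 for the transcription factors, beside -0.02 over all genes tested.

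Markers of other blood cells moved with the erythroid genes, and their part in the result was not tested. All 20 neutrophil markers were lower in CD61High in all 3 mice, and their summed share of gene counts in mice 1, 2 and 3 was 0.603%, 7.72% and 0.0538% in CD61High, and 2.30%, 12.4% and 0.236% in CD61Low. For CD61Low of mouse 2 that share, 12.4%, exceeded the 3.52% of all 30 erythroid genes. Ctsg was at 0 counts in 1 CD61High library, and the other 19 were above 0 in all 6. Of 15 monocyte and macrophage markers, 13 were lower in all 3 mice and 0 were at 0 counts anywhere, with shares of 0.124%, 0.864% and 0.0427% in CD61High, and 0.347%, 1.35% and 0.0580% in CD61Low. Of 13 B lineage markers tested, 9 were lower in all 3 mice, with shares of 0.0408%, 0.200% and 0.0241% in CD61High, and 0.148%, 0.306% and 0.0642% in CD61Low; Pax5 and Rag2 were at 0 in 2 CD61High libraries each, Mzb1 in 2 CD61High and 1 CD61Low, and Igll1 and Rag1 in 1 of each. Of 12 T and NK cell markers tested, 5 were lower in all 3 mice, with shares from 0.0104% to 0.0280% in CD61High and from 0.0122% to 0.0336% in CD61Low; Cd3g, Cd8a, Trbc2, Gzma, Ncr1 and Il7r were each at 0 in at least 1 library. Of 9 mast cell, basophil and eosinophil markers tested, 5 were lower in all 3 mice, with shares from 0.00119% to 0.233% in CD61High and from 0.000669% to 0.246% in CD61Low; Mcpt4 was at 0 in all 6, and Prss34, Ms4a2, Epx and Prg3 in at least 1. Markers of megakaryocytes and platelets did not follow: 6 of 9 tested were higher in CD61High in all 3 mice and 0 lower, with shares of 0.298%, 0.154% and 0.306% in CD61High, and 0.247%, 0.0707% and 0.290% in CD61Low, and Gp6 was at 0 in 2 CD61High and 1 CD61Low library. As in the erythroid genes, the libraries of mouse 2 held the highest neutrophil, monocyte and B lineage shares, and mouse 3 the lowest neutrophil and monocyte shares.

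**Figure D4:**
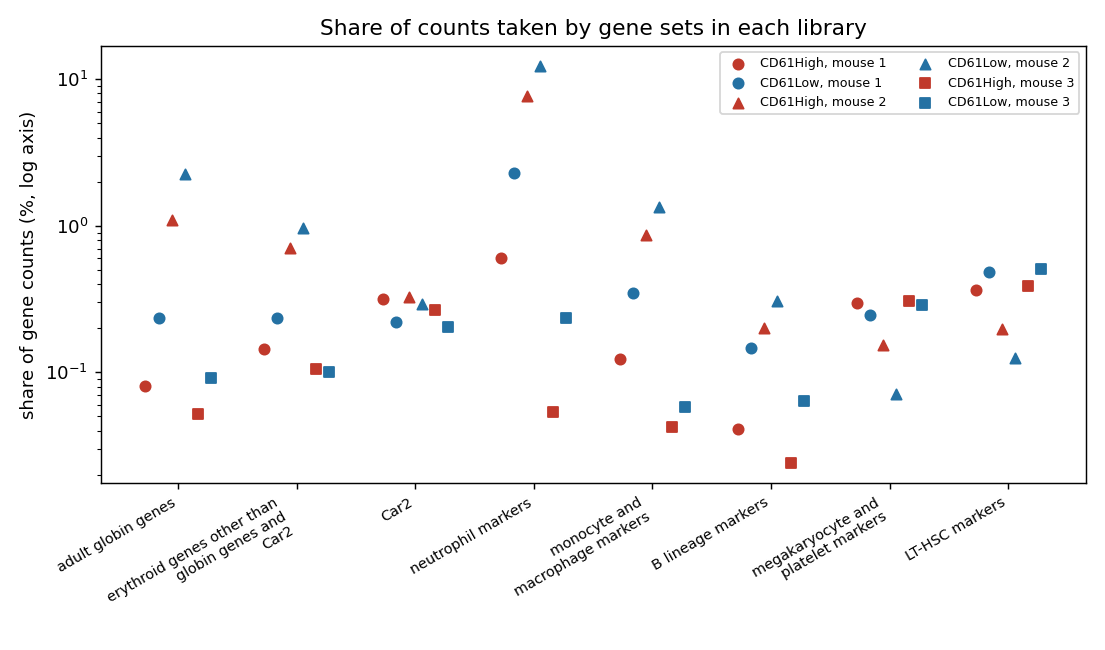
Share of all gene counts (y axis, %, log) taken by sets of genes in each of the 6 libraries, red for CD61High and blue for CD61Low, with 1 symbol shape per mouse. In the adult globin and neutrophil sets both triangles of mouse 2 lie above the other 4 libraries, while Car2 lies between 0.202% and 0.326%.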

How the data were processed

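Bulk RNA-seq was made from 6 libraries of sorted LT-HSCs, 3 CD61High and 3 CD61Low, 1 of each per mouse. Per the labels' protocols, cDNA came from 4 ng of RNA with SMART-Seq v4 and libraries from 1 ng of cDNA with Nextera XT, which keeps no strand. The values the authors deposited are raw counts of reads per gene; the submitters' processing notes name STAR 2.7, edgeR and MultiQC, and the build is not given in the sources used here. All 55450 gene identifiers of the library tables are those of GENCODE M21 (GRCm38), which gave symbols and coordinates, and 0 values differed from the series table. Without strand, overlapping genes cannot be told apart: 17.5% of the exon bases of Ppox (B4galt3), 15.5% of those of Alas2 and under 7% of those of any other gene of the set lie in another gene.

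Tests used edgeR 4.0.16 in R 4.3.3 (quasi-likelihood, robust, TMM factors, filterByExpr, two-sided, Benjamini-Hochberg adjustment over 15610 genes, threshold 0.05), without a block. The mouse as a block was an alternative, as were single libraries or mice left out, relative log expression factors, no filter and DESeq2 1.42.0. The titles pair the libraries by mouse, and the pairing rests on them. The correlation of deviations from the group means was 0.236, 0.806 and 0.761 in mice 1, 2 and 3 and -0.823 to 0.374 between mice. Taking deviations from a mean of 3 libraries by itself pushes the values between mice down. CD61High of mouse 1 correlated more with CD61Low of mouse 3 (0.374) than with its own partner (0.236). CPM are TMM-adjusted, log2 values carry a prior count of 2, and differences are CD61High minus CD61Low. The fits were tested on simulated data. All 15 pairs of libraries differed beyond sampling noise (lowest chi-square per degree of freedom 44.8). A count of 0 allows up to 3 counts, 0.114 to 0.140 CPM, for counting error only. Without a block, p-values weigh the difference against the spread between libraries of the same gate. With the block, they weigh it against how far the difference between the gates varied between mice.

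The members and lists were chosen with earlier results of these data known. Genes named are all members and, of each further list, those called or else the 2 with the smallest blocked p; 1 gene that this rule names is not reported here.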

Additional observations from a re-analysis of the deposited data

How the results depend on the processing

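The counts of calls depended on the mice and the model. Without a block edgeR called 0 genes, 230 under DESeq2 and 133 without mouse 2 (an alternative chosen after seeing the data), with 0 genes of the set among them in each case. With the replicate block edgeR called 40 genes and 1 of the set lower, 88 and 3 with relative log expression factors as well, and 1566 and 16 in DESeq2. Leaving out single libraries or mice, with or without the block, gave 0 to 742 genes and 0 to 7 of the set lower, the highest without mouse 2 (742), with 7 without mouse 3 and 0 without mouse 1. No alternative called a gene of the set higher. Of 479 log2 fold changes of the 30 genes under 16 alternatives (Hbb-bs had no p in DESeq2 without a block), 404 kept direction and side of the threshold, 27 newly passed, and 48 changed sign, in 29 genes; the cause was not tested. Leaving out CD61Low of mouse 2, the library richest in erythroid transcript, turned 27 of the 48. Over the fits that leave out a library or mouse, the log2 fold changes of the 29 genes ran as follows: Hba-a1 -3.97 to 1.51, Hba-a2 -4.36 to 1.37, Hbb-bs -4.19 to 1.55, Hbb-bt -4.19 to 1.48, Bpgm -1.29 to 0.72, Alas2 -3.76 to 1.69, Alad -0.99 to 0.82, Uros -1.04 to 0.64, Urod -0.93 to 0.63, Cpox -1.71 to 0.76, Ppox -1.44 to 0.53, Fech -1.60 to 0.87, Slc25a37 -3.11 to 0.92, Tfrc -3.37 to 1.38, Blvrb -2.13 to 0.85, Slc4a1 -4.26 to 1.503, Ank1 -3.69 to 0.98, Sptb -3.94 to 1.24, Rhag -3.57 to 1.47, Rhd -4.06 to 1.53, Gypc -0.48 to 0.31, Ermap -4.07 to 1.25, Aqp1 -1.01 to 1.47, Tspo2 -4.48 to 1.49, Mfsd2b -0.38 to 1.95, Klf1 -3.72 to 1.39, Epor -0.35 to 1.55, Car1 -3.97 to 1.03, Sphk1 -4.15 to 1.03. These ranges mix unpaired fits, where 1 library of mouse 2 can stay without its partner, with blocked fits that leave out a whole mouse. In the blocked ones, the medians of the globin, heme, membrane and progenitor lists stayed below 0, from -1.45 to -0.31. With the replicate block and without mouse 2, Bpgm (0.00526), Alad (0.26), Uros (0.00190), Urod (0.0829), Aqp1 (0.91) turned positive. Aqp1 also changed sign with the replicate block (0.35), with relative log expression factors and the block (0.33) and in DESeq2 with the block (0.33). With 1 library of a group left out, or 1 mouse under the block, few degrees of freedom remain, so a missed threshold there says little. Calls and SEs of such fits are limited for the same reason. Depth was no limit for the set, whose lowest count in a library was 22.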

Other observations

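Embryonic globins were nearly silent. In the order CD61High then CD61Low of mouse 1, mouse 2 and mouse 3, Hbb-y, the embryonic beta-like globin, had 0, 5, 0, 17, 0 and 0 counts, Hbb-bh1 had 0, 3, 3, 7, 0 and 0, Hbb-bh2 had 0, 0, 0, 1, 0 and 0 and the embryonic alpha-like Hba-x had 0, 0, 1, 4, 0 and 0. Most of these are at or below the 3 counts that a count of 0 allows. The highest, 17 counts of Hbb-y, came from CD61Low of mouse 2, the library richest in adult globin.

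Genes of macrophages that surround erythroblasts in marrow, which take up expelled nuclei, were also read, as values chosen after seeing the data. Vcam1, an adhesion molecule of these cells, stood at 7.23 CPM in the CD61High library and 36.1 in the CD61Low library of mouse 1, at 113 and 181 in those of mouse 2, and at 6.09 and 10.9 in those of mouse 3, and C1qa, a complement gene of macrophages, stood at 1.25 CPM in the CD61High library and 6.57 in the CD61Low library of mouse 1, at 23.3 and 51.7 in those of mouse 2, and at 0.997 and 2.42 in those of mouse 3. Slc40a1, the iron exporter of macrophages and erythroid cells, stood at 20.1 CPM in the CD61High library and 98.2 in the CD61Low library of mouse 1, at 287 and 426 in those of mouse 2, and at 10.6 and 20.4 in those of mouse 3. For all 3 the CD61High library was the lower one in each mouse, and mouse 2 had the highest levels. Tmod1, which caps actin filaments in the red cell skeleton, stood at 8.52 CPM in the CD61High library and 5.51 in the CD61Low library of mouse 1, at 32.2 and 58.0 in those of mouse 2, and at 7.57 and 1.82 in those of mouse 3; like Epor and Aqp1, it was higher in CD61High of mice 1 and 3 and lower in that of mouse 2.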
